A study of Oryza sativa with 2 samples.

Results

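The transcripts described here encode the cell cycle and DNA replication machinery of rice (Oryza sativa). They were chosen by name, as array probes whose only gene has a symbol or synonym of a cyclin of type A, B, D or U, a cyclin-dependent kinase (CDK), CDC2, an MCM, ORC, E2F or KRP protein, or PCNA. EL2, a CDK inhibitor, was kept apart. The rule used no measured value and gave 43 genes of 15798 with a probe, read by 49 of the 22574 probes measured on both arrays. Of 56 genes that the rule finds in the RefSeq gene table of assembly ASM3414082v1, the other 13 had no probe matched here, among them MCM2, MCM4, ORC2, ORC3, ORC6, KRP2, KRP3 and CDKB1-1. No gene of that table matched E2F or a cyclin of type U. ACR2.1 and ACR2.2 entered because their synonyms CDC25.1 and CDC25.2 begin like CDC2. They are arsenate reductases related to the CDC25 phosphatases and not core cell cycle genes.

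Whole rice seedlings, grown for 7 days on MS medium in a growth chamber, were exposed to carbon ion beams for 2 h 35 min, and untreated seedlings served as the control. The sources used here do not give the dose, the cultivar, the time between exposure and harvest or how many seedlings went into an extract. There were 2 two-channel Agilent arrays of the same irradiated and control extracts, with irradiated RNA in Cy5 on the first array and in Cy3 on the other, called the swapped array. Both carry the same replicate number, so there was 1 replicate per group, no test of any difference was possible, and no value below has a replicate check. Values are log2 ratios of irradiated over control after removal of each array's dye trend, so 1 is 2-fold. The mean of both arrays is given where arrays are not named, and the distance of each array from that mean holds dye bias and noise. The direction is likely and not certain, because the files do not name the numerator of the deposited ratios. They were read as Cy5 over Cy3. Each gene name depends on a numbering of the spots that the annotation does not state and that was checked against the values.

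Cells copy their DNA in S phase and divide in mitosis, and the steps between are driven by CDKs bound to cyclins. D-type cyclins respond to growth signals before S phase, A-type cyclins act from S phase on and B-type cyclins act at mitosis, while KRP proteins hold CDKs back. The origin recognition complex (ORC) marks the sites where replication starts and loads the MCM helicase there, and PCNA is the ring that clamps DNA polymerases to the template and also serves in DNA repair. In a seedling, transcripts of replication proteins and mitotic cyclins come mostly from dividing cells of the shoot and root tips and young leaf bases. That need not hold for CDKs that serve transcription or RNA processing, or for the ACR2 proteins. In RNA of whole seedlings, fewer cells of a type and less RNA per cell cannot be told apart.

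PCNA stood apart from the rest of the replication machinery. Its ratio was 2.42 on the first and 3.0 on the swapped array. The mean was 2.71, which is 6.54-fold higher in irradiated seedlings. Each array lay 0.29 from the mean, and both were far above 2-fold. By its mean PCNA was number 65 from the highest of all 22574 probes. Its spot was in the seventh of 10 deciles by recovered intensity, where the central 95% of all probes had means between -0.71 and 1.15. The mean of PCNA lay between 2.11 and 3.0 under 6 other normalizations, and both arrays were past 2-fold in all 6.

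Counted over the whole set, 2 of the 49 probes, those of PCNA and the kinase CDKG-1, passed 2-fold higher on both arrays, and 0 passed 2-fold lower. The same limits called 1.92% of all probes higher and 0.244% lower. With each array centred on its median only, PCNA was the 1 member called, where 1.14% of all probes were higher and 0.12% lower. At 1.5-fold 3 members were higher and 0 lower, where the whole array had 3.69% higher and 1.69% lower. The median of the 49 means was -0.04, against -0.01 for all probes. Both arrays had a ratio above 0 for 11 members and below 0 for 12, against 22.4% and 22.3% of all probes, and the arrays pointed in opposite directions for 26. That is 53.1% of the members, near the 55.3% of all probes.

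**Figure D1:**
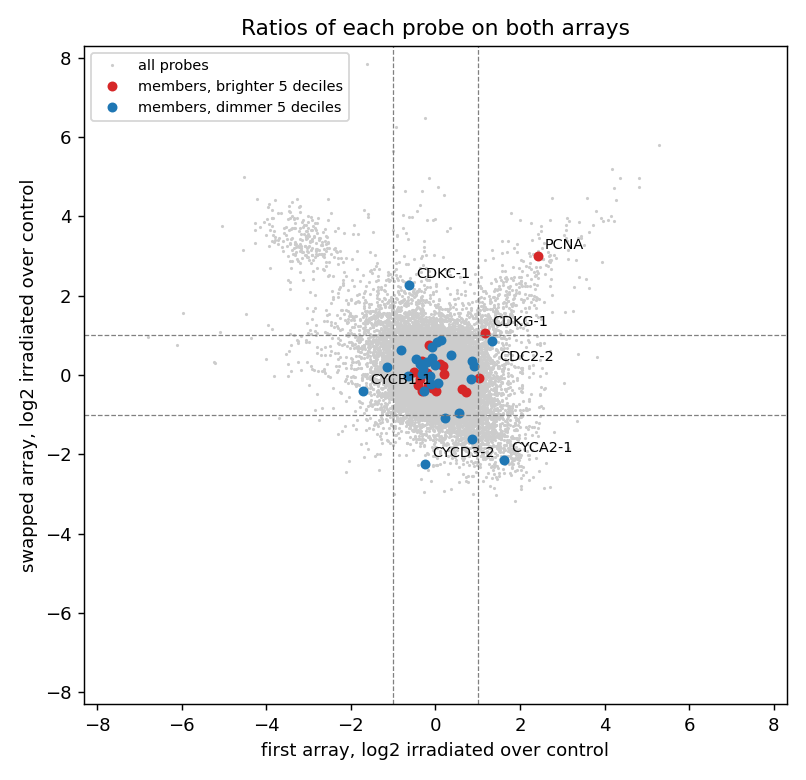
Log2 ratio of irradiated over control on the first array (x axis) and on the swapped array (y axis) for all 22574 probes (grey) and for the 49 members, red for those in the brighter 5 intensity deciles and blue for those in the dimmer 5. Dashed lines mark 2-fold. PCNA lies in the upper right corner with both arrays above 2, CDKG-1 lies just inside that corner, and most other members lie within 2-fold on both arrays.

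The licensing proteins that prepare origins had means well below that of PCNA. None of the 6 MCM probes was past 2-fold on both arrays. Of all probes 1.92% were higher and 0.244% lower, so that count says nothing particular to them. Of the 6 probes 5 were in the dimmer 5 deciles. The arrays had opposite signs for 4 of the 6, beside 55.3% of all probes. The median of the MCM means was -0.06. The sign of that median turned in 4 of the 6 other normalizations, up to 0.09 with median centring. MCM3, a subunit of the replicative helicase, was the highest of them with 0.90 and 0.23 on the first and swapped array and a mean of 0.57. MCM6, of the same helicase, was the lowest with 0.87 and -1.62, a mean of -0.37, from a dim spot where the arrays disagree. With median centring the arrays of MCM6 were -0.27 and -0.41. The helicase subunits MCM5 and MCM7 had means of -0.08 and -0.07. MCM8 and MCM9, relatives of the helicase that serve in recombination in other eukaryotes, had means of -0.04 and 0.50. The arrays of MCM5, at -0.80 and 0.64, and those of MCM7 and MCM8 had opposite signs, so these means give no direction.

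ORC subunits had a median of 0.02 over 4 probes, and of 0.17 with median centring. The highest value was that of the brighter ORC1 probe, 1.03 and -0.08 on the first and swapped array, with a mean of 0.47. The other ORC1 probe was the lowest, with 0.06 and -0.21 and a mean of -0.08. ORC4 had a mean of 0.07 and ORC5 one of -0.03. All 4 ORC probes pointed in opposite directions on the arrays, so no ORC subunit had a direction. Of all probes 55.3% did so, and 63.2% of those in the dimmer 5 deciles. With a loess span of 0.6, 1 of the 4 ORC probes was below 0 on both arrays, so the 4 of 4 depended on the normalization.

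**Figure D2:**
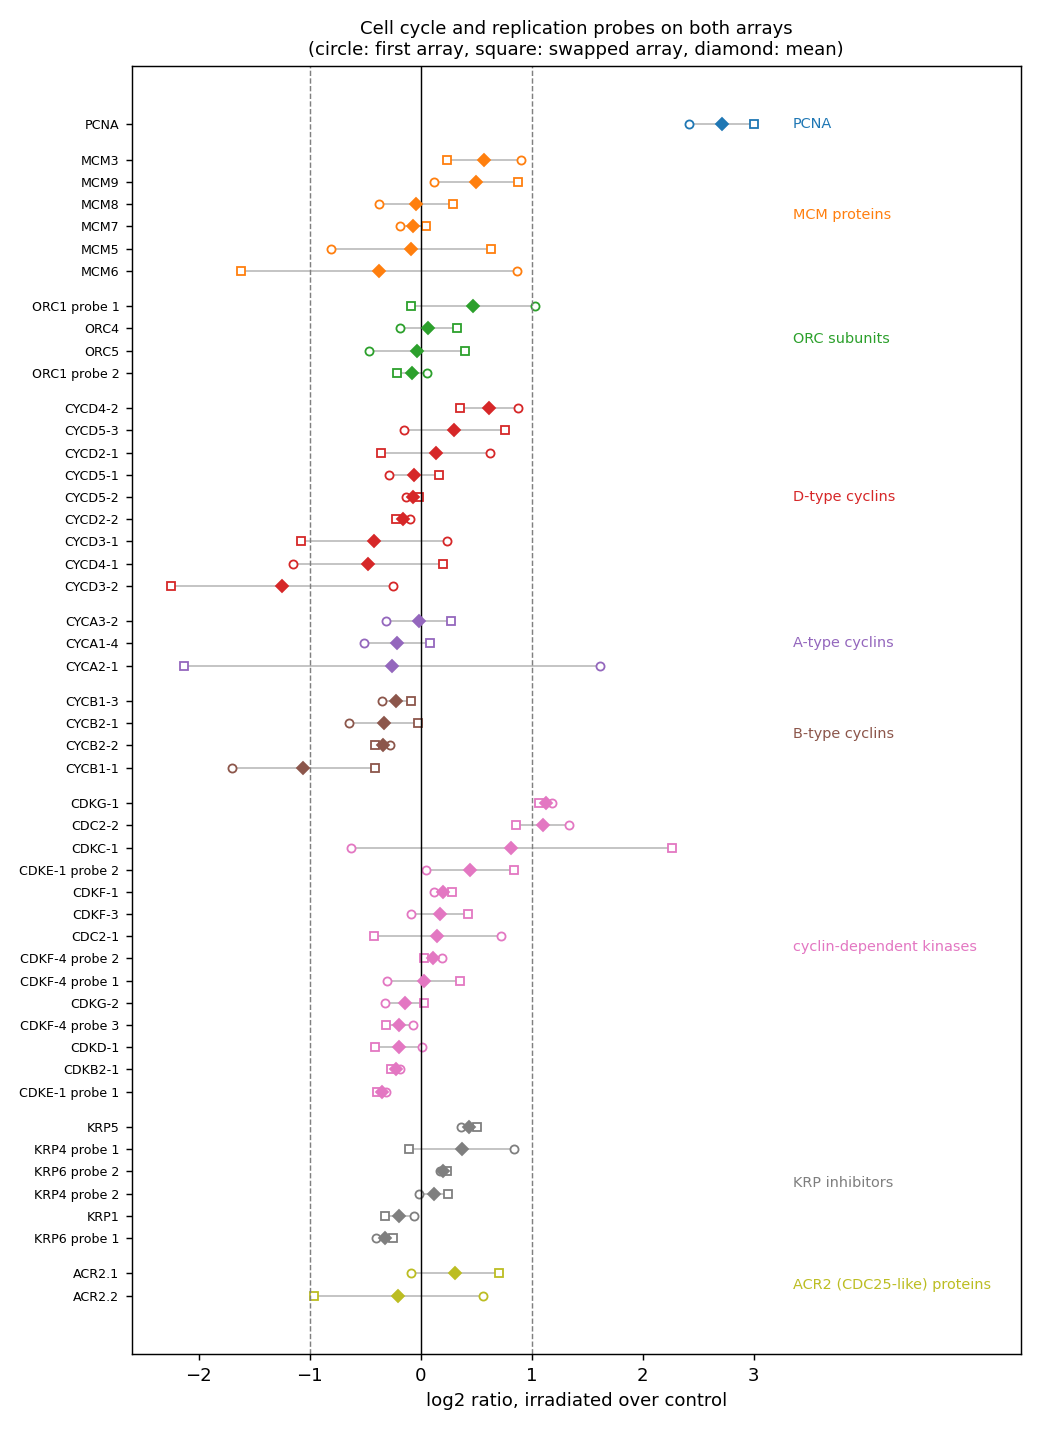
Log2 ratio of irradiated over control (x axis) of each of the 49 probes (y axis), grouped by role, with the first array as a circle, the swapped array as a square and their mean as a diamond. Probes of a gene with several are numbered from the brightest, and dashed lines mark 2-fold. PCNA is at 2.42 and 3.0, the 4 B-type cyclins lie below 0 on both arrays, and the widest gap between arrays is that of CYCA2-1.

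B-type cyclins, the cyclins of mitosis, were the only role group whose probes were all below 0 on both arrays, 4 of 4 where 22.3% of all probes were so. CYCB1-1 was the lowest with -1.70 and -0.41 on the first and swapped array and a mean of -1.06. In Arabidopsis a cyclin called CYCB1;1 is known to be induced by DNA damage. That name is carried by both rice genes CYCB1-1 and CYCB1-3 in RefSeq, and which of them is its counterpart was not determined. CYCB1-3 was the highest with -0.35 and -0.09, a mean of -0.22. CYCB2-1 had a mean of -0.33 and CYCB2-2 one of -0.34. Apart from CYCB1-1 these values are small, and 0 of the 4 reached 1.5-fold on both arrays, where 1.69% of all probes were lower. With median centring all 4 means stayed below 0, between -1.22 and -0.24, but only 2 of the 4 were below 0 on both arrays. CDKB2-1, the plant-specific kinase that partners cyclins at mitosis, had a small value from a bright spot, -0.18 and -0.26 on the arrays and a mean of -0.22. With median centring its arrays had opposite signs, 0.63 and -1.24.

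A-type cyclins gave no direction, with 3 of 3 probes pointing in opposite directions on the arrays. The same was so for 55.3% of all probes and 63.2% of those in the dimmer 5 deciles. CYCA3-2 was the highest with -0.31 and 0.28, a mean of -0.02. CYCA2-1 was the lowest with 1.61 and -2.13, a mean of -0.26, and each array lay 1.87 from that mean, more than for any other member. Its spot was in the dimmest decile, and with median centring its arrays stood closer together, at 0.40 and -0.77. CYCA1-4 had a mean of -0.21. With median centring its arrays were -0.50 and -0.11, so the 3 of 3 depended on the normalization.

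D-type cyclins, which link growth signals to entry into S phase, ran in both directions, with 3 means above 0 and 6 below over 9 genes and a median of -0.07. CYCD4-2 was the highest with 0.87 and 0.35 on the first and swapped array and a mean of 0.61. CYCD3-2 was the lowest of all 49 members with -0.25 and -2.25, a mean of -1.25 or 2.38-fold lower. Only the swapped array was past 2-fold for it, and its spot was in the dimmest but 1 decile. With median centring its arrays stood closer together, at -1.41 and -0.89.

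The other D-type cyclins lay between these. CYCD3-1 and CYCD4-1 had means of -0.42 and -0.47, each with 1 array past 2-fold lower and the other above 0. Means were 0.30 for CYCD5-3, 0.14 for CYCD2-1, -0.06 for CYCD5-1, -0.07 for CYCD5-2 and -0.16 for CYCD2-2. The arrays of CYCD2-1, CYCD3-1, CYCD4-1, CYCD5-1 and CYCD5-3 had opposite signs, so these means give no direction. The mean of CYCD2-1 turned to -0.12 with median centring.

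Cyclin-dependent kinases held the other 2 members past 1.5-fold on both arrays. At that limit 3.69% of all probes were higher, 5.42% in the brighter 5 deciles and 1.97% in the dimmer 5. CDKG-1, of a CDK class linked to RNA processing in Arabidopsis, had 1.18 and 1.07 on the first and swapped array and a mean of 1.12, or 2.18-fold higher. The arrays agreed to within 0.06 of that mean, and the spot was in the ninth decile. In that decile the central 95% of all probes had means up to 1.95, so the mean of CDKG-1 lay inside the range of bright probes. With median centring its arrays were 1.78 and 0.12, which is no longer past 2-fold on both, and the call was made in 3 of 6 other normalizations. CDKG-2, of the same class, had -0.32 and 0.03, a mean of -0.14. That mean gives no direction and turned to 0.09 with median centring.

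CDC2-2, a CDK of type A and thus of the class that drives both S phase and mitosis, had 1.34 and 0.86, a mean of 1.10 or 2.14-fold higher. The spot was dim, in the third decile, and with median centring its arrays were 0.26 and 1.71. Its paralogue CDC2-1 had 0.72 and -0.42, a mean of 0.15. CDKC-1, of the class that phosphorylates RNA polymerase II in other eukaryotes, had the widest gap among the kinases, with -0.63 and 2.26 on the first and swapped array and a mean of 0.82. It therefore passed 2-fold on only 1 array.

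None of the remaining kinase probes was past 1.5-fold on both arrays, where 3.69% of all probes were higher and 1.69% lower. CDKD-1, a CDK-activating kinase, had a mean of -0.20. Of the CDKF class, also CDK-activating in Arabidopsis, CDKF-1 had a mean of 0.20 and CDKF-3 one of 0.17. The 3 probes of CDKF-4 ran from -0.19 to 0.11. The arrays of CDKD-1, CDKF-3 and the brightest CDKF-4 probe had opposite signs, so these means give no direction. Of the 14 kinase probes 6 were opposite, beside 55.3% of all probes. With median centring only 2 of the 14 had both arrays above 0, and 0 had both below. The brighter probe of CDKE-1, a kinase of the Mediator complex of transcription, was the lowest kinase probe with -0.31 and -0.39, a mean of -0.35. A dim probe of that gene had 0.05 and 0.84, a mean of 0.44. With median centring the arrays of each CDKE-1 probe had opposite signs, 0.62 and -1.47 for the brighter and -0.93 and 2.16 for the dim one. The median of the 14 kinase probes was 0.13, but -0.04 with median centring, where its sign turned.

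KRP proteins, the inhibitors that bind and block CDKs, were not past 1.5-fold on both arrays in any of 6 probes. At that limit 3.69% of all probes were higher and 1.69% lower, so the count says nothing particular to KRP proteins. KRP5 was the highest with 0.36 and 0.51, a mean of 0.44. The brighter probe of KRP6 was the lowest with -0.40 and -0.25, a mean of -0.32, and the other KRP6 probe stood at 0.17 and 0.24, a mean of 0.20, so the probes of KRP6 disagree in sign. With median centring the arrays of each KRP6 probe had opposite signs, 0.53 and -1.18 for the brighter and 0.60 and -0.40 for the other. KRP1 had a mean of -0.19, and the KRP4 probes had means of 0.37 and 0.12. The arrays of each KRP4 probe had opposite signs, so their means give no direction. With median centring the arrays of KRP1, at 0.55 and -1.29, and of KRP5, at -0.14 and 0.49, also had opposite signs. The group median was 0.16, and its sign turned in 3 of the 6 other normalizations, to -0.01 with median centring. EL2, a CDK inhibitor of another family, stood at 4.82 and 4.74, a mean of 4.78, so the KRP probes and EL2 differed by more than any gap between arrays within them. The arsenate reductases ACR2.1 and ACR2.2 had -0.09 and 0.71, a mean of 0.31, and 0.56 and -0.96, a mean of -0.20.

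Spot brightness sets how far these values can be read. Of the 49 members 30 were in the dimmer 5 deciles and 19 in the brighter 5. Both 2-fold calls were among the 19, where 3.45% of all probes were called higher, against 0.399% in the dimmer 5 deciles. In the lower direction 0.363% and 0.124% of all probes were called. At 1.5-fold 2 of the 19 brighter members were higher, beside 5.42% of all bright probes, and 1 of the 30 dimmer ones, CDC2-2, beside 1.97% of all dim probes. At that limit 0 members were lower in both ranges of brightness, beside 1.86% of bright and 1.52% of dim probes. The robust SD of the part of the ratio that follows the dye was 0.92 in the dimmest decile of all probes and 0.20 in the brightest. Over the members, the median distance of an array from the mean was 0.13 in the brighter 5 deciles and 0.33 in the dimmer 5. Across the 49 probes the arrays correlated at r = 0.09 with a rank correlation of -0.02. Across the 19 brighter ones r was 0.72, but the rank correlation was 0.14. These are descriptions across probes of shared extracts. Members with means outside the central 95% of their own decile numbered 5, PCNA, CDC2-2 and CDKC-1 above it and CYCB1-1 and CYCD3-2 below. Only PCNA was outside it and past 2-fold on both arrays.

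**Figure D3:**
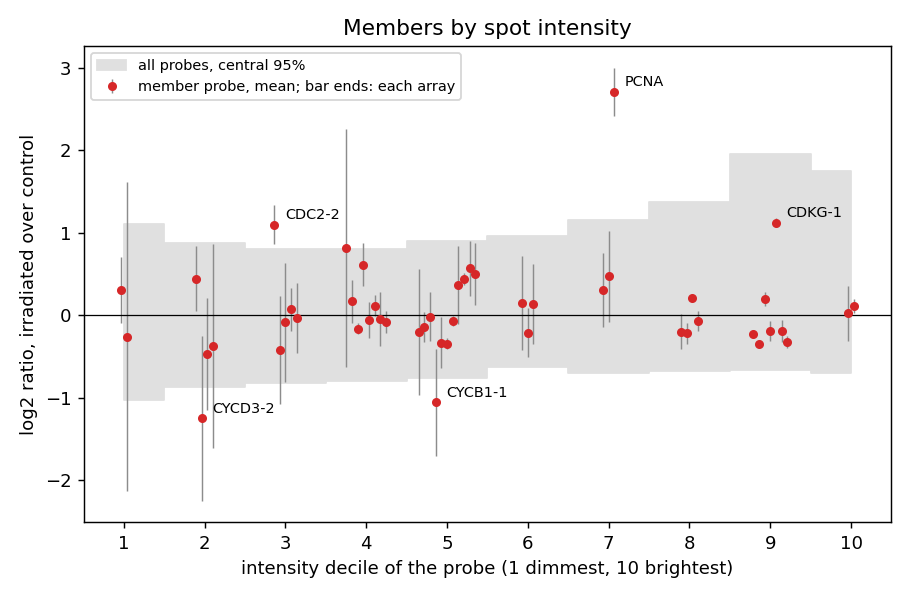
Mean log2 ratio of irradiated over control (y axis) of the 49 members by intensity decile of the probe (x axis, 1 dimmest), with bars that end at the values of each array. The grey band holds the central 95% of all probes of the decile. PCNA at 2.71 lies well above the band, CDKG-1 lies within it, and bars are longest in the dim deciles.

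Calls near the 2-fold limit depended on the normalization, while PCNA was called under all of those tried. Under the 6 other normalizations the mean of CDKG-1 ran from 0.95 to 1.24, that of CDC2-2 from 0.92 to 1.16, that of CYCB1-1 from -1.29 to -0.98 and that of CYCD3-2 from -1.26 to -1.15. Signs of these 4 means did not turn, but CDC2-2 was past 2-fold on both arrays in only 1 of the 6, and CYCB1-1 and CYCD3-2 in 0.

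**Figure D4:**
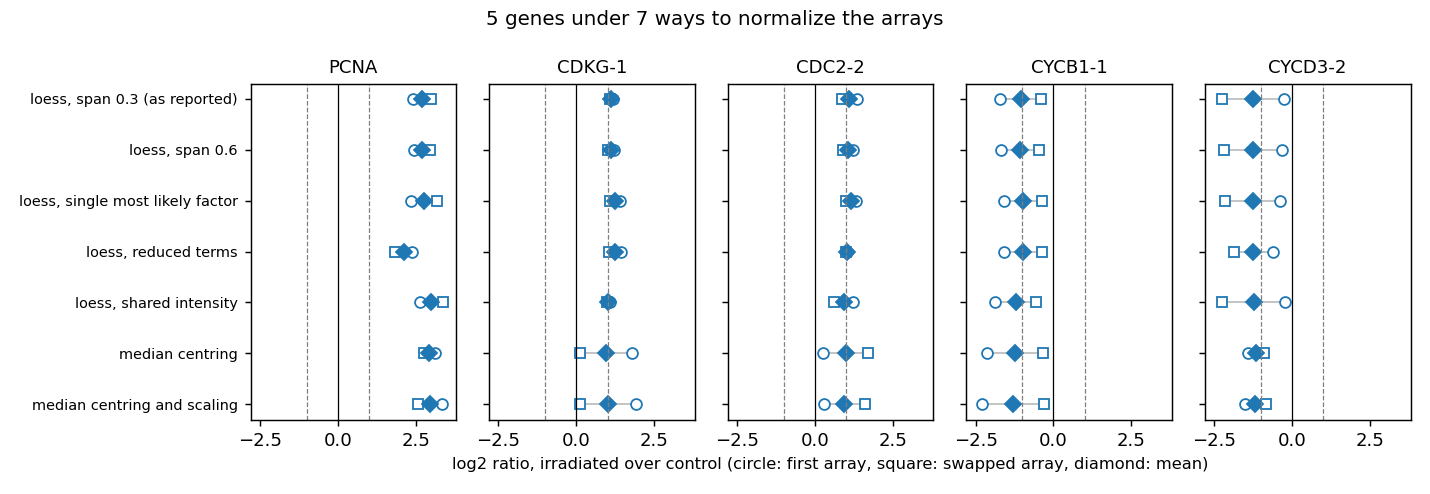
Log2 ratio of irradiated over control (x axis) of 5 genes under the reported normalization and 6 others (y axis), with the first array as a circle, the swapped array as a square and the mean as a diamond. Dashed lines mark 2-fold. Both arrays of PCNA stay past 2-fold throughout, while the arrays of CDKG-1 and CDC2-2 move apart when no intensity trend is removed.

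Further lists give the genes that work beside the members, EL2 apart. Of 19 DNA synthesis and cell division probes for 19 genes, 0 were higher and 0 lower past 2-fold on both arrays, where 1.92% and 0.244% of all probes were. A list of that size can hold 0 at these shares, so the count says nothing particular to it. The median was -0.10, and its sign differed between the arrays, with 0.095 for the first and -0.33 for the swapped one. The subunits of replication factor C, which loads PCNA onto DNA, were RFC1 at 0.05, RFC2 at -0.20, RFC3 at 0.30, RFC4 at -0.10 and RFC5 at 0.27. RFC3, with 1.44 and -0.85 on the arrays, was the highest of the list and came from the dimmest decile. The lowest was the cyclin CYCP3-1 with -0.84 and -0.74, a mean of -0.79. It was the only probe of the list past 1.5-fold on both arrays. At that limit 3.69% of all probes were higher and 1.69% lower, so this count says nothing particular to the list. POLD2, a subunit of DNA polymerase delta, which works with PCNA, had a mean of 0.01, and the retinoblastoma-related RBR2, which restrains entry into S phase, one of -0.04. The arrays of RFC1, RFC2, RFC3, RFC4, POLD2 and RBR2 had opposite signs, so their means give no direction. Of the 19 probes in the list 14 were opposite, 73.7% beside 55.3% of all probes.

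Of 25 DNA repair probes for 18 genes, 0 were higher and 0 lower past 2-fold on both arrays, which beside 1.92% and 0.244% of all probes is no result about the list either. The median was -0.01. The highest was a PARP1 probe, of an enzyme that marks DNA breaks, with -0.46 and 1.80, a mean of 0.67, and another PARP1 probe had a mean of -0.16. The lowest was a dim probe of RAD23, a protein of nucleotide excision repair, with -0.14 and -1.61, a mean of -0.88, and its brightest probe had a mean of 0.36.

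Marker probes were read for the labelled tissue, whole seedlings. All 5 leaf probes, of chlorophyll-binding and photosystem proteins, were in the brightest 2 deciles, while of 7 root probes only LSI1, a silicon channel, was in the brighter 5 deciles and 4 of 5 seed storage probes were in the dimmer 5. Brightness of different probes is not a level of their genes, and the leaf probes also served to check the spot numbering, so this is a description and no independent check of the tissue. Of the meristem markers OSH1 was in the third decile and WOX5 in the eighth, with means of -0.22 and 0.10. None of these marker probes was past 2-fold on both arrays, where 1.92% of all probes were higher and 0.244% lower. The markers had means from -0.37 to 0.19 for leaf, from -0.74 to 0.23 for root and from -0.18 to 0.18 for storage probes. Their part in the ratios of the members was not tested.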

How the data were processed

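The authors deposited 22575 log10 ratios of both channels per array, read on a GenePix scanner per the series' design text, which names GeneSpring version 4 for normalization. 1 value is missing. Column medians of 0.051 and 0.20 log10 units and a trend with intensity show that the deposited log10 values were not centred. Background handling and the numerator are not stated in these sources.

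Each value was matched to the simplest fraction within its 9 decimals. The upper and lower terms had medians of 143 and 163 (first array) and 205 and 166 (swapped array). After a small random change these became 29637 and 27097, and 35052 and 23117. The values are therefore read as ratios of whole-number intensities. A common factor of at most 59 was put back, averaged over its possible values given both arrays. This averaging was chosen after seeing the data. Each array was normalized by loess on the resulting intensity (span 0.3, 3 iterations, statsmodels 0.14.6) and taken to log2. The steps were tested on simulated data with the same ratio noise at every intensity. That test does not cover the larger noise of dim spots, where most members lie.

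Over all probes the deposited columns correlated at r = 0.67, and after loess at 0.28. In the brightest 2 deciles they correlated at -0.64 and -0.46, so both columns were taken to have Cy5 in the same place, and the sign of the swapped array was changed. That reading and Cy5 as numerator are likely only.

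The annotation names 17860 probes, 17839 with 1 gene and 21 with several, and leaves 4715 unnamed here. All 17839 matched the RefSeq table by gene number. In the numbering used, which walks a 105 by 215 grid of spots in another order than the value table, the 5 leaf probes had a median intensity of 15810, against 201 as listed. The intensities of 1859 pairs of probes of the same gene correlated at 0.26, against 0.01. Of 213 spots that follow the dye, 98.6% had no single gene, against 17.8%.

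The number of arrays limits the precision. A call is 2-fold on both arrays. Every member is named, with both arrays for those past 1.5-fold on both and for the highest and lowest of each role. In the other lists both arrays are given for the extremes. The members and lists were chosen with earlier results of these data known. Symbols and synonyms alone filled the lists, and 3 division and 2 repair probes that matched by spelling only were left out. Alternatives were median centring, scaling, other intensities, each array alone, both readings of direction and other thresholds.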

Additional observations from a re-analysis of the deposited data

How the results depend on the processing

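The counts of 2 members higher and 0 lower depended on several choices. The higher count was 1 with median centring, 1 with scaling as well, 1 with the mean intensity of both arrays behind both fits (chosen after seeing the data) and 1 at 3-fold, in each case PCNA. It stayed between 2 and 3 with the most likely common factor (also chosen after seeing the data), with reduced terms, with a span of 0.6, at 1.5-fold, per gene, in the brighter deciles and by the mean of both arrays, where 2 were lower. The first array alone gave 5 higher and 2 lower, and the swapped array alone 3 higher and 4 lower. Read as Cy3 over Cy5 the counts were 0 higher and 2 lower, and the means of PCNA, CDKG-1 and EL2 turned to -2.71, -1.12 and -4.78. With both columns read as irradiated over control 1 member was higher, and PCNA turned to -0.29. With annotation numbers as listed 0 were higher, the median was 0.057 and PCNA stood at -0.38. The median over members stayed under every other alternative between -0.09 and 0.05. On the first array alone 1 probe of the division list was higher, and the median of that list was 0.095 there and -0.33 on the swapped array alone. Of the repair list 3 were higher on the first array alone, 2 higher and 5 lower on the swapped array alone, and 2 higher with both columns read as irradiated over control. Its median was 0.17 on the first array alone and 0.11 with reduced terms. The cause was not tested. No paired analysis was possible because there is 1 replicate per group. Dim spots limit 30 of the 49 members.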

Other observations

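In the gene order of assembly ASM3414082v1, 2 genes stand between ACR2.2, with a mean of -0.20, and EL2, with one of 4.78. There are 3 genes between the members MCM6, at -0.37, and CYCA1-4, at -0.21. These means differ by less than the 1.24 by which each array of MCM6 lies from its mean. With median centring the arrays of MCM6 were closer, at -0.27 and -0.41. Of the 5 member genes with several probes, CDKE-1 had the largest difference between the means of its probes, 0.80, followed by ORC1 with 0.55 and KRP6 with 0.53, CDKF-4 with 0.31 and KRP4 with 0.25.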
